A study of Mus musculus with 2 samples.

Results

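The cells described here are low-keratin S-phase cells of the mouse buccal mucosa, the lining of the inside of the cheek. They were chosen by their transcripts. A cell belonged if its unique molecular identifiers (UMIs, 1 per captured RNA molecule) held at least 6 per 10000 from the S-phase genes Mcm3, Ung, Hells, Dtl, Ccne2, Cdt1 and Rrm2, a sum called S below. S also had to exceed G, the sum of the G2/M genes Top2a, Cenpf, Ube2c, Ccnb1, Nusap1 and Prc1. Krt4+Krt13, the keratins of differentiating mucosa, had to stay under 80 per 10000, and Krt7+Krt18 under 5. Of 15470 cells kept (500 or more genes, mitochondrial UMIs no more than 10%), 313 met the rule, 156 of 6907 in library 1 and 157 of 8563 in library 2.

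The basal layer renews stratified epithelium. Before a basal cell divides, it loads the Mcm2-7 helicase onto replication origins, switches on a large set of genes through E2F transcription factors as cyclin E rises, and copies its DNA behind the helicase with the sliding clamp Pcna, polymerases and ligase. Nucleotide synthesis, histone supply and chromatin assembly run alongside, and the genes of mitosis are switched on later, mostly in G2. In squamous mucosa, cells that leave the basal layer stop dividing and fill with Krt4 and Krt13.

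All animals were C57BL/6 females of 12 weeks with no treatment or engineered allele named. Buccal mucosa from 10 of them gave a single pool, and cells with high surface CD104 (the β4-integrin, encoded by Itgb4, which anchors basal cells to the basement membrane) were sorted. Their suspension was then divided into 2 technical replicates on the 10x Chromium platform, called library 1 and library 2. There is thus 1 independent sample: no significance test was possible, and the agreement of the libraries measures technical spread only.

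Library 1 held 7215 barcodes and 67962712 UMIs, library 2 held 9076 barcodes and 73935792 UMIs, and the lowest barcode had 3362 and 3149 UMIs. The median low-keratin S-phase cell had 6984 UMIs in library 1 and 6178 in library 2, against 5887 and 4845 in resting cells. Thinned to 3000 UMIs a cell, the S-phase cells held a median of 1359 and 1370 genes and the resting cells 1306 and 1334. In all, 104 barcode sequences occurred in both libraries. Among these were the barcodes of 5 S-phase cells, and none was a low-keratin S-phase cell in both.

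The S-phase cells were set against 3 classes. Resting cells had Krt4+Krt13 under 80 with S and G both under 6, and no limit on Krt7+Krt18 (2120 and 2301 cells). G2/M cells had both keratin limits of the S-phase cells, G of at least 6 and G at or above S (1238 and 1635 cells). S-phase cells with more keratin met the same rule for S and G but had Krt4+Krt13 of 80 or more (28 and 70 cells). Levels are in CPM, the UMIs of a gene scaled to 1000000 UMIs of its class, summed over the class's cells in each library. A gene is called higher or lower where it differed at least 1.5-fold the same way in both libraries and averaged at least 20 CPM over the classes compared. This is a rule of size, and intervals cover counting error only. UMIs per cell rest on 1 end of each transcript, so levels are compared between classes and not between genes.

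Low-keratin S-phase cells made up 2.26% of kept cells in library 1 (95% exact binomial interval 1.92 to 2.64) and 1.83% in library 2 (1.56 to 2.14). Among low-keratin cells alone the shares were 4.44% and 3.83%. The 2 intervals overlap in both cases. These shares describe the rule and depend on its thresholds: 28 cells had S from 6 to under 7, just inside, and 53 cells meeting the other criteria had S from 5 to under 6, just outside. For the keratins, 18 members lay between 70 and 80, and 15 cells from 80 to under 90 met the rest.

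**Figure D1:**
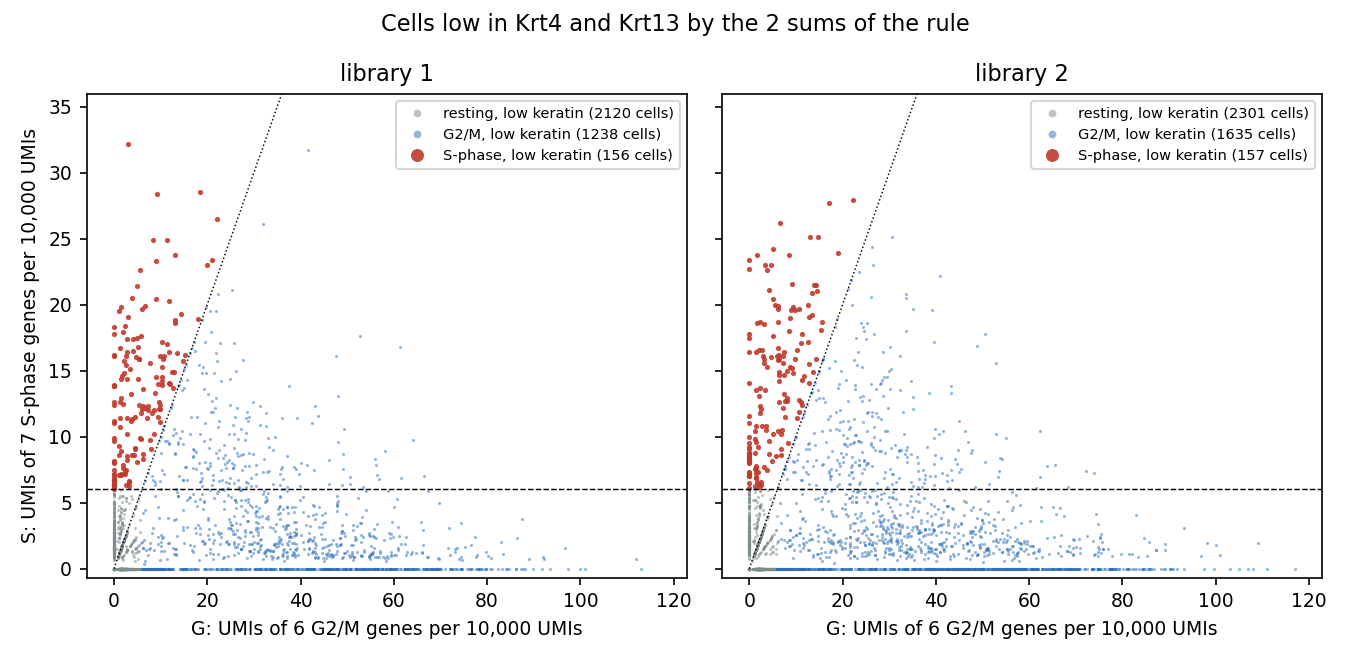
Each point is a cell low in Krt4 and Krt13, placed by G (x axis) and S (y axis), both in UMIs per 10000, in each library. The dashed line is S of 6, the dotted line is S equal to G, and the 156 and 157 low-keratin S-phase cells lie above both lines.

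The rule's own genes show how the cells were picked and are given without a test. Rrm2, the small subunit of ribonucleotide reductase, supplied 30.1% of the S UMIs in library 1 and 36.2% in library 2, and 118 of 156 and 116 of 157 cells had it. Hells, a chromatin remodelling helicase, was found in 125 and 116 cells, and Ccne2, a cyclin E, in 91 and 89. At least 4 of the 7 S genes were present in 233 of the 313 cells (74.4%), so most members did not rest on 1 transcript. Yet 18 cells entered on only 2 or 3 S UMIs. No cell was removed by the limit on Krt7+Krt18, and every member held some Krt4 or Krt13.

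Most cells with S of at least 6 fell on the G2/M side. Of 829 such cells under both keratin limits, 516 (62.2%) had G at or above S and therefore count as G2/M here, where they form 18% of that class. Of the 313 S-phase cells, 61 had no G UMI and 129 (41.2%) had G of 6 or more. Top2a, the topoisomerase that untangles copied DNA, gave 53.4% and 48.8% of their G UMIs. The low-keratin S-phase cells are therefore the portion of cells with S-phase transcripts in which those outweigh G2/M transcripts.

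The S-phase label was set beside 19 S-phase markers that the rule did not use. Against resting cells 17 of the 19 were higher, though only 6 reached 20 CPM in resting cells, and all 6 of those were higher. Against G2/M cells 15 of the 19 were higher (12 of the 15 with at least 20 CPM in G2/M cells). The 2 that were not higher than in resting cells, Cdc6 and Exo1, averaged under 20 CPM over the classes: Cdc6, which loads the helicase, had 26.3 and 35.4 CPM in S-phase cells against 0.677 and 0.665 in resting cells. Exo1, a repair nuclease, had 35 and 26.3 against 0.977 and 0.748. Of 8 G2/M markers outside the rule all 8 were lower than in G2/M cells, and 4 of them were higher than in resting cells. The sums S and G set the S-phase cells apart from both classes. The directions of cell cycle markers were built in to that extent and are a description. Of 7 basal keratinocyte markers none was higher than in resting cells and Krt15 was lower.

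Markers of other cell types were counted in the same cells. The 14 immune markers summed to 77.9 and 196 CPM (743 and 1673 in resting cells), with 5 and 3 of them at 0, including Cd3e and Lyz2 in both libraries. Only 1 and 4 S-phase cells held 3 or more immune markers. Of 10 fibroblast markers, 7 were at 0 in both libraries (Col1a1, Col1a2 and Col3a1 among them), and the rest, Dcn, Sparc and Vim, gave sums of 367 and 474 CPM against 495 and 523. The 9 gland markers summed to 143 and 167 CPM (248 and 224 in resting cells, which had no Krt7+Krt18 limit), with 5 and 4 of them at 0. Of 6 endothelial markers 5 and 6 were at 0. Without cells of 3 or more immune markers, 488 genes were higher and 176 lower than in resting cells, beside 494 and 184 with all cells. Without cells of 2 or more immune or fibroblast markers the counts were 509 and 195. Beyond such counts and single genes given below, the part of these transcripts in the results was not tested.

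Against resting cells, 494 of 5421 genes compared were higher in the low-keratin S-phase cells (9.11%) and 184 were lower (3.39%), with the 17 genes of the rule left out. The median gene differed by -0.04 on the log2 scale. With resting cells also held under 5 for Krt7+Krt18, 497 of 5407 genes were higher and 162 lower. Most measured genes of origin licensing, the replication fork, repair, chromatin assembly and mitosis were higher, and so were 13 of 21 nucleotide genes. The lower genes included keratins of suprabasal and stressed epithelium, a group of histone genes, Krt15 and antigen presentation genes.

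Licensing and helicase genes came first among the lists. Of 13 measured, 12 were higher (median log2 ratio 2.79). Because a gene could also enter the comparison through a high level in the S-phase cells alone, a second count takes only genes of at least 20 CPM in resting cells, and there 6 of 7 were higher. Mcm2 (chromosome 6, 88883474 to 88898780, GRCm38) had 109 and 84.9 CPM in S-phase cells and 11.8 and 12.1 in resting cells, an 8.08-fold difference (counting interval 2.78 to 3.30 on the log2 scale). Mcm5 had 151 and 165 CPM against 12.3 and 14, and Gins2, part of the complex that activates the helicase, had 128 and 141 against 24.2 and 23.2. In all 3 both S-phase values lay far above both resting values. Gmnn, the inhibitor that prevents a second round of licensing, had 227 and 196 CPM against 23.1 and 22.6. Orc4, an origin recognition subunit, did not pass, with 21.9 and 42.4 CPM against 30.2 and 38.3.

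Of 30 fork genes 28 were higher (16 of the 18 with at least 20 CPM in resting cells). Pcna had 328 and 399 CPM against 44.1 and 46, an 8.04-fold difference. Lig1, which joins Okazaki fragments, had 200 and 179 against 13.3 and 15.2, a 13.3-fold difference. Clspn, which links the fork to the checkpoint kinase Chek1, had 64.8 and 60.6 against 1.43 and 1.41, and was found in 50 and 43 S-phase cells. The gene listed as 2810417H13Rik, which encodes the Pcna-associated factor Pclaf, had 828 and 1042 CPM against 18.7 and 23.9. The 2 fork genes that did not pass were Pold4, a small subunit of polymerase δ (42 and 35.4 CPM against 62.6 and 68.2), and Top1, the topoisomerase that relaxes DNA ahead of the fork (81.4 and 95 against 128 and 126).

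Nucleotide supply was less uniform: 13 of 21 measured genes were higher (10 of 18 by the second count). Tyms, thymidylate synthase, had 313 and 320 CPM in S-phase cells against 32.3 and 32.9 in resting cells. Tk1, Rrm1 and Dut were 2.22 to 3.56 higher on the log2 scale in each library. Paics and Impdh2, enzymes of purine synthesis, did not pass: Paics had 248 and 295 CPM against 178 and 174, and Impdh2 had 348 and 343 against 251 and 235. Slc29a1, a nucleoside transporter, had 86.7 and 99 CPM against 26.5 and 31.3.

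Of 17 repair genes, 15 were higher (4 of the 5 with at least 20 CPM in resting cells). Uhrf1, which brings the methyltransferase Dnmt1 to newly copied DNA, had 144 and 117 CPM against 6.69 and 6.65. Neil3, a glycosylase, had 76.2 and 66.7 against 1.8 and 1.66. Atr, the kinase that senses stalled forks, did not pass, with 27.1 and 24.2 CPM against 17.6 and 18.5. Chek1, its target, had 46.4 and 44.5 against 3.16 and 2.91. The cohesion list gave 5 of 13 higher (3 of 11 by the second count), among them Esco2, which acetylates cohesin on new sister strands: 118 and 165 CPM against 2.33 and 2.33, 59.9-fold, first among genes outside the rule by the smaller of the library ratios.

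Chromatin genes were higher in 23 of 26 (18 of 21 by the second count). Asf1b, a histone chaperone, had 179 and 200 CPM against 6.32 and 7.56, and Chaf1b, a subunit of the assembly factor CAF-1, had 93.7 and 88.9 against 3.53 and 5.15. Slbp, which binds the stem-loop at the end of replication-dependent histone messages, had 580 and 754 against 58.9 and 73. Histone genes themselves were mixed. H2afz, a variant histone, had 2210 and 2627 CPM against 737 and 821, whereas H3f3a and H3f3b, which encode H3.3, did not pass. Of 69 canonical histone genes 4 could be compared, and Hist1h2bc (25.4 and 28.3 CPM against 187 and 205), Hist1h1c and Hist3h2a were lower while Hist1h4i was higher. Hist1h2ap and Hist1h2ae averaged under 20 CPM, with 24.5 and 20.2 against 0.226 and 0.0831, and 38.5 and 30.3 against 1.5 and 1.16. Histone genes are near-identical copies and most of these messages carry no poly(A) tail, so their counts are uncertain.

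**Figure D2:**
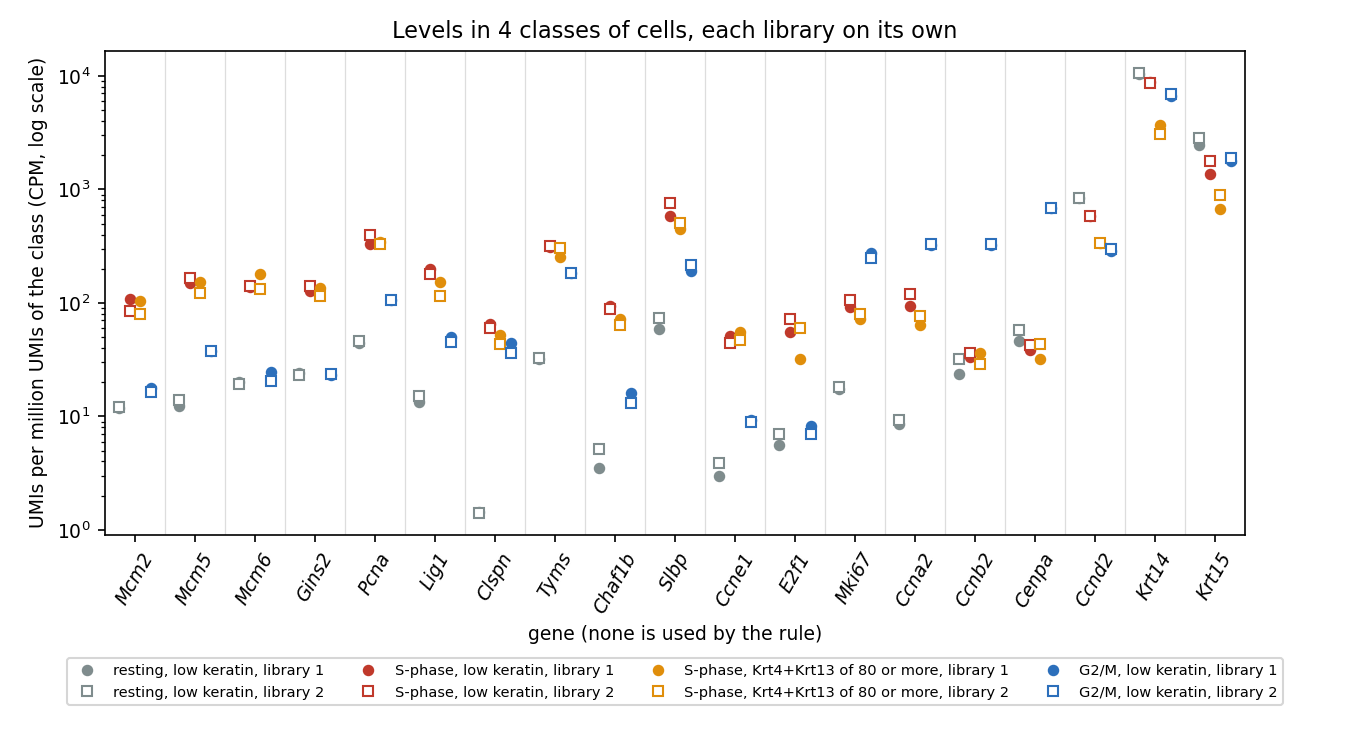
Levels of 19 genes outside the rule (x axis) in CPM on a log scale (y axis) in 4 classes of cells, with filled symbols for library 1 and open symbols for library 2. The low-keratin S-phase cells (red) lie with the S-phase cells of more keratin (orange) from Mcm2 to E2f1, at or above the G2/M cells (blue) and above the resting cells (grey), and far below the G2/M cells for Ccnb2 and Cenpa.

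The list of cell cycle regulators holds genes of entry into S phase and also Ccna2, Cdk1, Cks1b, Cks2 and Cdc25b. In it 13 of 19 were higher and 1 was lower (4 and 1 of the 10 with at least 20 CPM in resting cells). Ccne1 had 50.8 and 44.5 CPM in S-phase cells against 3.01 and 3.91 in resting cells, and E2f1 had 55.2 and 72.7 against 5.56 and 6.98. Cdk4, the kinase that D cyclins activate, had 367 and 395 against 201 and 218. The D cyclins did not pass: Ccnd1 had 105 and 136 CPM against 135 and 126, overlapping, and Ccnd2 had 586 and 580 against 844 and 834, below in both libraries but by less than 1.5-fold. Myc, a growth factor-induced transcription factor, was the 1 lower gene, at 40.3 and 39.4 against 66.7 and 72.1. Of the CDK inhibitors Cdkn2c (98 and 102 against 34.2 and 36.6) and Cdkn2d were higher, and Cdkn1a, the p53 target p21, had 39.4 and 49.5 against 55.2 and 62.7.

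Mitotic genes were also higher than in resting cells, in 30 of 36 measured (9 of the 15 with at least 20 CPM in resting cells). Cdk1 had 228 and 289 CPM against 18.9 and 18, Ccna2, cyclin A2, had 93.7 and 119 against 8.5 and 9.31, and Mki67 had 91 and 106 against 17.3 and 18. Ccnb2, the B cyclin of mitotic entry, did not pass, with 33.3 and 36.4 against 23.8 and 32, and Cenpa, the centromere histone, had 38.5 and 42.4 against 46.5 and 57.8. With G also held under 6 (184 cells), 14 of 24 mitotic genes were higher and 1 lower. Licensing stayed at 12 of 13 and fork genes at 26 of 29. Over all genes compared at that limit, 403 of 5413 were higher and 131 lower. The limit drops cells by their own G2/M transcripts, so fewer mitotic calls were built in and these counts are a description.

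Basal identity genes were present at somewhat lower levels. Of 17 measured none was higher and 2 were lower (median log2 ratio -0.44, or -0.25 with G held under 6, where none was lower). Krt5 had 3113 and 2793 CPM against 3639 and 3412, Krt14 had 8899 and 8655 against 10301 and 10650, and Itgb4, the sorted surface protein's gene, had 112 and 88.9 against 135 and 116. These 3 were below resting cells in both libraries but did not pass. Krt15, a basal keratin, had 1375 and 1775 against 2453 and 2822, and Itgb1, the β1-integrin, had 73.5 and 58.6 against 111 and 109. Both were lower by the size rule. Because CPM are shares of a total, added replication transcripts leave a smaller share for the rest. Over all genes compared with resting cells the median log2 ratio was -0.04, beside -0.44 for the basal genes. The part of the basal gap that comes from shares was not tested, and a smaller share and less RNA per cell cannot be told apart.

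Of 26 genes of basal signalling 1 was higher and 2 were lower. Tgfb1, the growth inhibitory TGF-β1, had 71.8 and 59.6 CPM in S-phase cells against 36.3 and 34.2. Igfbp3, which binds insulin-like growth factors, had 74.4 and 109 against 144 and 165, and Dll1, a Notch ligand, had 16.6 and 13.1 against 25.1 and 27.9. Of 18 epithelial transcription factors only Elf3 passed, and was lower (17.5 and 17.2 against 29.2 and 30.4). Trp63, the p63 gene that maintains basal cells, had 428 and 423 against 480 and 488 and did not pass.

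Of 19 differentiation genes 6 were lower and none higher. Krt6b, a keratin of stressed epithelium, had 7 and 14.1 CPM in S-phase cells against 63.2 and 85.8 in resting cells, and Krt6a had 249 and 243 against 400 and 384. Krt16 and Krt17 were lower too, but 40.6% of the S-phase cells' UMIs of Krt16 came from 1 cell, and 19.4% of those of Krt17. The suprabasal keratins of skin, which are not on that list, were lower as well: Krt1 had 7 and 3.03 against 89.8 and 104, and Krt10, its partner, had 52.5 and 75.8 against 174 and 246. Krt6a, Krt6b, Krt16 and Krt17 belong to near-identical keratin families, where counting may divide reads between copies. Krt4 and Krt13, which the rule limited alike in both classes, had 1164 and 1310 CPM against 1206 and 1333, and 2405 and 2470 against 2752 and 2757.

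Antigen presentation genes were lowest of all, led by H2-Eb1, H2-Aa, Cd74 and H2-Ab1. Cd74 had 5.25 and 37.4 CPM against 333 and 817, a gap that moves with the immune marker sums given above. With cells of 3 or more immune markers left out, the log2 ratio of Cd74 was 0.19 and that of H2-Aa 0.17. That of H2-Ab1 was -0.96 and that of H2-Eb1 -0.04. All 4 genes are themselves among the immune markers that decided which cells were left out, so these values are a description.

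Outside the lists, Tcp11l2 had 4.38 and 6.06 CPM against 35 and 41.1, and BC037156 had no UMI in S-phase cells against 15 and 84.8 CPM in resting cells. Those 2 resting values lie far apart for technical replicates, and the ratio of BC037156 rests on counts of 0 set to 3. Few genes of several metabolic lists passed. None of 79 ribosomal protein genes did (median log2 ratio -0.09), though only 10 of them lay above resting cells on average. Of 83 respiratory chain genes 1 was higher, the assembly factor Ndufaf2 (89.3 and 104 CPM against 37.6 and 34.9), and 2 were lower, with Ndufa4l2, a hypoxia-induced gene, at 269 and 302 against 517 and 589. Of 12 glycolytic genes Aldoa was lower (323 and 349 against 525 and 576) and none was higher. Their median log2 ratio was -0.22, with 3 of the 12 above 0. Of 21 nucleolar genes 3 were higher, Nop56, Nolc1 and Nhp2, and none was lower. Of 6 p53 target genes none passed in either direction.

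Promoter windows of the genes were read for 3 short motifs on both strands. Windows reach from 250 bases before to 50 after the transcript start in a RefSeq table on GRCm38.p6, which holds 390 of the 494 higher genes. The E2F motif was searched as TTTCCCGC, TTTCGCGC, TTTGGCGC and TTTGCCGC, the cell cycle homology region (CHR) as TTTGAA, and the CCAAT box as CCAAT. On opposite strands 2 E2F matches can share letters. An E2F match lay in 2.6% of the 27025 genes of the table and in 5.73% of the 4225 there that were compared with resting cells. It lay in 4 of 6 S genes of the rule, 18.2% of the genes higher than in resting cells and none of the 137 lower ones in the table. Of 50 licensing and fork genes 40% held one, against 12.2% of mitosis genes. Of 25 nucleotide genes 1 did (4%), near the 5.73% of all genes compared with resting cells.

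The CHR match lay in 20.2% of all genes of the table and 14.4% of those compared with resting cells. Of the genes higher than in resting cells 22.3% held it, and of the lower ones 19%. It lay in none of the 6 S genes, in 4 of the 6 G genes and in 71.4% of mitosis genes. Letters of this kind are a description of the window and not a bound site, and windows without a match, such as those of Ung, Rrm2, Pcna, E2f1 and Ccne1, say nothing of the factor. The windows below show the contrast between the S genes and the G genes of the rule, with Mcm6 added for its E2F matches, which are 3 in number. Capitals mark E2F matches in Mcm3 (chr1:20820263-20820562, minus strand), Hells (chr19:38930740-38931039, plus strand), Dtl (chr1:191575495-191575794, minus strand) and Mcm6 (chr1:128359656-128359955, minus strand). They mark CHR matches in Top2a (chr11:99024140-99024439, minus strand) and Ube2c (chr2:164769679-164769978, plus strand).
Mcm3: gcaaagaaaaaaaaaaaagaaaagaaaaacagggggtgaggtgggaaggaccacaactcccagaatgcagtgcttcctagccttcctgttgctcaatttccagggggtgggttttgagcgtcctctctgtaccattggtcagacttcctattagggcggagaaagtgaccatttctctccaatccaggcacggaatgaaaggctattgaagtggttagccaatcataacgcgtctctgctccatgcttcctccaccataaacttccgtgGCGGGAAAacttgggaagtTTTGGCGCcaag
Hells: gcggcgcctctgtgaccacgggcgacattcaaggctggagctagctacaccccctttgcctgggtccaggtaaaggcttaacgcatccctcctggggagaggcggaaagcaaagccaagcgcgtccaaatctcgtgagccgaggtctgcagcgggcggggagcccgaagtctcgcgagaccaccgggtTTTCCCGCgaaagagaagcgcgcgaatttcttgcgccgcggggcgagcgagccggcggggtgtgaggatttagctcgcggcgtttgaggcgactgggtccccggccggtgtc
Dtl: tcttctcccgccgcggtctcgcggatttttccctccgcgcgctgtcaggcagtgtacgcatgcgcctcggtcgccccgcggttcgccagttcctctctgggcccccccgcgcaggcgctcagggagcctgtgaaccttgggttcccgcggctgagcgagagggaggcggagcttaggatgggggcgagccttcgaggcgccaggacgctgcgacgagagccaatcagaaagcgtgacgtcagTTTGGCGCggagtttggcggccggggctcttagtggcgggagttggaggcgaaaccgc
Mcm6: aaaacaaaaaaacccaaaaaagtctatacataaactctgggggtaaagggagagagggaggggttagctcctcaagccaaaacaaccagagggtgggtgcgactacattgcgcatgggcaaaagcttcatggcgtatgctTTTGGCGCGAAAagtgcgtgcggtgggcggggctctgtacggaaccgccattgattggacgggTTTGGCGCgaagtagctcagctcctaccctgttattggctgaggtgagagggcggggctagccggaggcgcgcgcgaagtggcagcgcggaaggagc
Top2a: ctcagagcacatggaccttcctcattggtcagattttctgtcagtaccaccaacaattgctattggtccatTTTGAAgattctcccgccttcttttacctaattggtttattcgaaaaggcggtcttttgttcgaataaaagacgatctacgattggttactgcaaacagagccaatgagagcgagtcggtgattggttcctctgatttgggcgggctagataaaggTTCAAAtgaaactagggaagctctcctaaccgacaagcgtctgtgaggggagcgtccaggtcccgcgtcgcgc
Ube2c: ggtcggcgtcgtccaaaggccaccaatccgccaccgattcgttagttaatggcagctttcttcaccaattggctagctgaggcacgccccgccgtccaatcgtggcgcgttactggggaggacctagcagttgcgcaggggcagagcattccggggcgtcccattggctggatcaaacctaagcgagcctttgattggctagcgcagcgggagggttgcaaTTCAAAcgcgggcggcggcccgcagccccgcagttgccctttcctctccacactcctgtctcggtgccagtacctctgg

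Against G2/M cells, which are further along the cycle, 250 of 5507 genes were higher in the low-keratin S-phase cells (4.54%) and 305 were lower (5.54%). Genes of the start of replication were higher, genes of the fork and of nucleotide supply were higher to a smaller extent, and mitotic genes were lower almost throughout. The rule used S and G in this contrast, so its direction for cell cycle genes was built in and the values serve as a description. An E2F match lay in 17.3% of the higher genes in the promoter table and 4.31% of the lower ones, against 5.92% of the genes compared. A CHR match lay in 10.7% and 43.5%, against 15.2%.

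The genes furthest up were those of the transition into S phase. E2f1 had 55.2 and 72.7 CPM in S-phase cells against 8.26 and 6.92 in G2/M cells, 8.38-fold. Chaf1b had 93.7 and 88.9 against 16.1 and 13.1, Mcm6 had 139 and 140 against 24.4 and 20.6, and Ccne1 had 50.8 and 44.5 against 9.2 and 8.97. For each the 2 classes were far apart in both libraries. Of 15 licensing genes 11 were higher and 1 was lower, Dbf4, the activator of the origin-firing kinase Cdc7, at 33.3 and 26.3 CPM against 76.2 and 73.5. Slfn9, a Schlafen family gene, had 69.2 and 74.8 against 15.1 and 17.1.

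Of 33 fork genes 23 were higher and none lower. Pclaf (2810417H13Rik) and Clspn were among those that did not pass, with 828 and 1042 CPM against 684 and 766, and 64.8 and 60.6 against 44.6 and 36. Of 22 nucleotide genes 13 were higher. Tk1, with 369 and 404 CPM against 291 and 292, and Rrm1, with 207 and 164 against 168 and 157, were not. Esco2, 59.9-fold above resting cells, had 118 and 165 CPM against 167 and 155 in G2/M cells. So some of the genes furthest above resting cells did not pass the size rule between the cycling classes.

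Of 61 mitotic genes 56 were lower and none higher (median log2 ratio -1.73). Cenpa had 38.5 and 42.4 CPM in S-phase cells against 683 and 684 in G2/M cells, a 16.9-fold difference. Ccnb2 had 33.3 and 36.4 against 325 and 329, and Cdc20, the activator of the anaphase-promoting complex, had 67.4 and 83.8 against 665 and 651. Gas2l3, which acts in cell division, had 4 UMIs in all in the S-phase cells, 2.63 and 1.01 CPM, against 89.6 and 89.2. Variant histones were lower in 5 of 9, among them H2afx (130 and 173 against 369 and 393) and H1f0 (151 and 235 against 652 and 655). Hmgb2, a chromatin protein well above resting levels, had 1395 and 1581 against 3269 and 3362.

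Regulators divided between the 2 directions, 8 of 23 higher and 5 lower. Cdk4 (367 and 395 CPM against 202 and 193) and Ccnd2 (586 and 580 against 289 and 297) were higher in S-phase cells, and Ccna2, Cdk1, Cks1b, Cks2 and Cdc25b were lower. Of 5 CDK inhibitors 3 were lower, Cdkn2c, Cdkn2d and Cdkn3. Of 20 nucleolar genes 6 were higher, including Gnl3, nucleostemin, at 96.3 and 87.9 against 43.2 and 43.9. All but 1 of 79 ribosomal protein genes lay above G2/M cells on average, by a median of 0.21 on the log2 scale, and none passed the size rule. None of 16 basal genes passed.

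**Figure D3:**
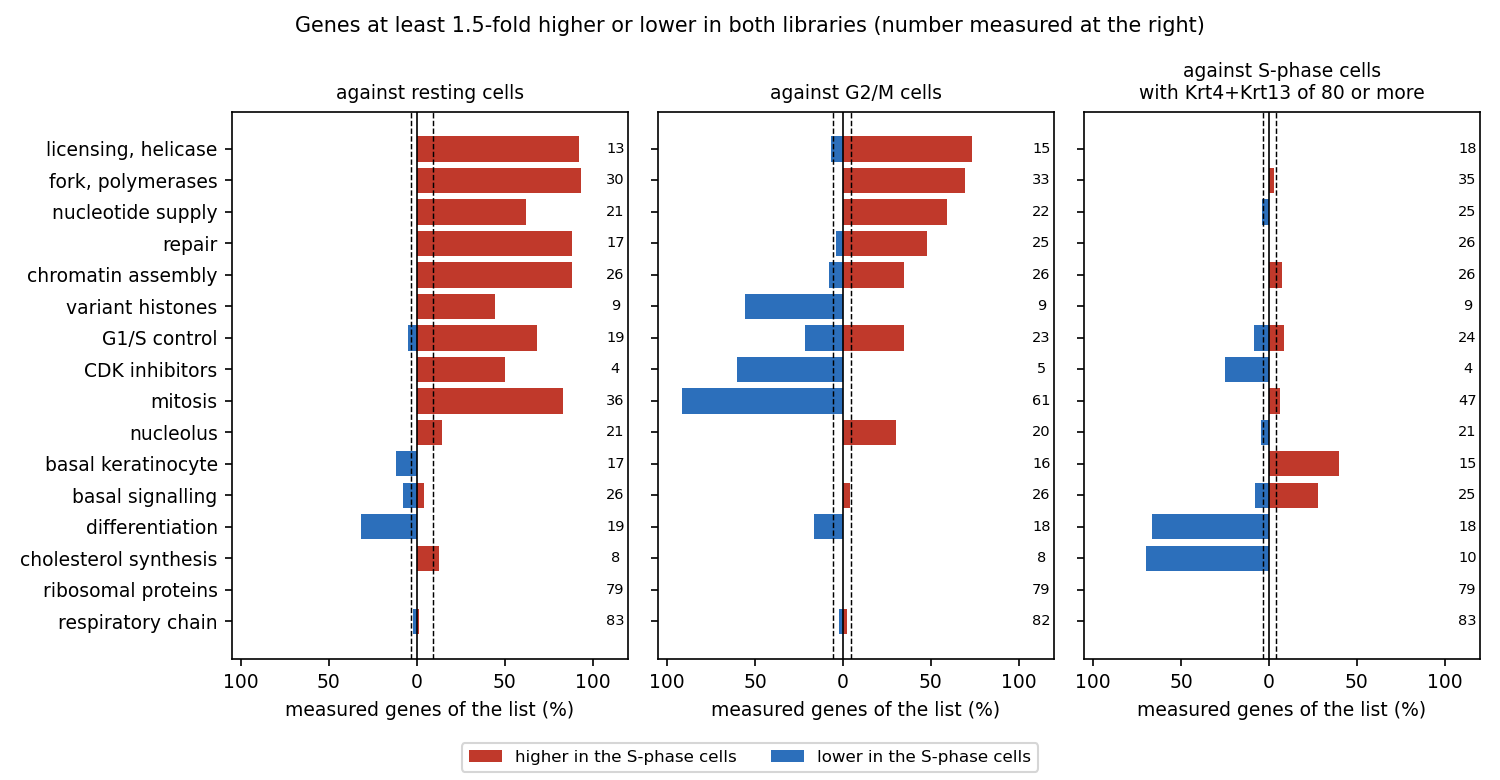
Percent of the measured genes of 16 lists (rows) that were higher (red, to the right) or lower (blue, to the left) in low-keratin S-phase cells, against 3 classes; dashed lines give the percent over all genes compared, and the number measured stands at the right. Replication lists stand out against resting and G2/M cells, and basal, differentiation and cholesterol lists against S-phase cells with more keratin.

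Against S-phase cells with Krt4+Krt13 of 80 or more, 207 of 5441 genes were higher in the low-keratin cells (3.8%) and 194 lower (3.57%). Replication genes were at like levels. Basal genes were among the higher ones (6), and differentiation (12) and cholesterol synthesis genes (7) among the lower. Most of the differing genes were outside these lists. The correlation between the libraries across genes was 0.367, beside 0.888 against resting cells and 0.801 against G2/M cells. With every cell thinned to 3000 UMIs, 291 genes were higher and 277 lower. Only 84 of the 207 and 102 of the 194 were among them. Thinning also changed which cells met the rule, to 390 low-keratin and 120 comparison cells from 313 and 98. The overlap therefore mixes depth with changed classes. The comparison cells numbered only 28 in library 1 and 70 in library 2. The keratin limit chose these classes, so genes that vary with Krt4 and Krt13 were bound to differ, and the values are a description.

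None of 18 licensing genes passed. Mcm2 had 109 and 84.9 CPM against 104 and 80, and Mcm5 had 151 and 165 against 152 and 122. Of 35 fork genes Rfc3, a clamp loader subunit, alone was higher (130 and 119 against 63.9 and 70.9). No mitotic gene was lower, and Kif11, Kif20b and Ncapg2 were higher of 47. S-phase cells with and without much keratin thus held these transcripts within the size rule of each other, with few exceptions.

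Basal genes were higher in 6 of 15 (median log2 ratio 0.66). Krt14 had 8899 and 8655 CPM in the low-keratin cells against 3712 and 3077, Krt15 had 1375 and 1775 against 667 and 884, and Itga6, the partner of the β4-integrin, had 271 and 228 against 112 and 127. Trp63 had 428 and 423 against 263 and 264. Krt5 had 3113 and 2793 against 3361 and 2497, overlapping. When the keratin limit was set at 40, so that the comparison class took in cells of 40 to 80, 1 of 16 basal genes was higher.

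The genes furthest up included Dkk3, Wfdc2, Dlk2 and Smoc2. Dkk3, a Wnt modulator, had 41.1 and 30.3 CPM against 7.98 and 5.46. Dlk2, a Notch pathway modulator, had 56.9 and 41.4 against 12 and 10.9, and Smoc2, a matricellular protein, had 54.3 and 58.6 against 16 and 14.5. These rest on few UMIs in the comparison cells: 5 for Dkk3, 9 for Dlk2 and 12 for Smoc2. Wfdc2 had 77 and 99 against 16 and 23.6. Dcn and Sparc, which are also fibroblast markers, had 170 and 278 against 51.9 and 45.5, and 194 and 188 against 71.8 and 50.9, with fibroblast marker sums of 124 and 96.4 CPM in the comparison cells. Of the UMIs of Dcn 16.4% came from 1 cell, and with cells of 2 or more immune or fibroblast markers left out its log2 ratio was -0.36. Dcn is itself among the markers that decided which cells were left out, so that value is a description. For Lgals1 23.8% came from 1 cell.

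Of 18 differentiation genes 12 were lower. Krtdap had 181 and 271 CPM against 1209 and 800, Cnfn, a cornified envelope protein, had 11.4 and 18.2 against 164 and 56.4, and Ly6d had 665 and 852 against 2124 and 2358. Tgm3, a transglutaminase, had 56 and 55.6 against 192 and 233. Cholesterol synthesis genes were lower in 7 of 10 (median log2 ratio -1.43), with Fdps at 35 and 40.4 against 212 and 138 and Sqle at 7 and 8.08 against 51.9 and 29.1. Against resting and G2/M cells 0 of 8 were lower. Hes1, a Notch target, had 122 and 169 against 299 and 360. The cyclins differed in kind: Ccnd1 was lower (105 and 136 against 220 and 222), and Ccnd2 was higher (586 and 580 against 335 and 336). Cdkn1a was lower, at 39.4 and 49.5 against 75.8 and 151.

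The share of cells in S phase, by the same rule for S and G, was lowest in the bands of most keratin. Among cells of Krt7+Krt18 under 5 it was 5.67% (interval 4 to 7.76) at Krt4+Krt13 under 20, 4.6% from 20 to under 40 and 3.42% from 40 to under 80, with both libraries pooled. From 80 to under 160 it was 3.57%. It was 1.09% (0.684 to 1.65) from 160 to under 320 and 0.0795% (0.0164 to 0.232) at 320 and over, where 3 of 3775 cells were in S phase. In the band from 80 to under 160 the libraries differed, with 1.98% (1.18 to 3.11) in library 1 and 4.84% (3.67 to 6.26) in library 2, and these intervals do not overlap. The share of G2/M cells stayed between 36.7% and 41.5% over the bands up to 160 and was 2.36% at 320 and over.

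**Figure D4:**
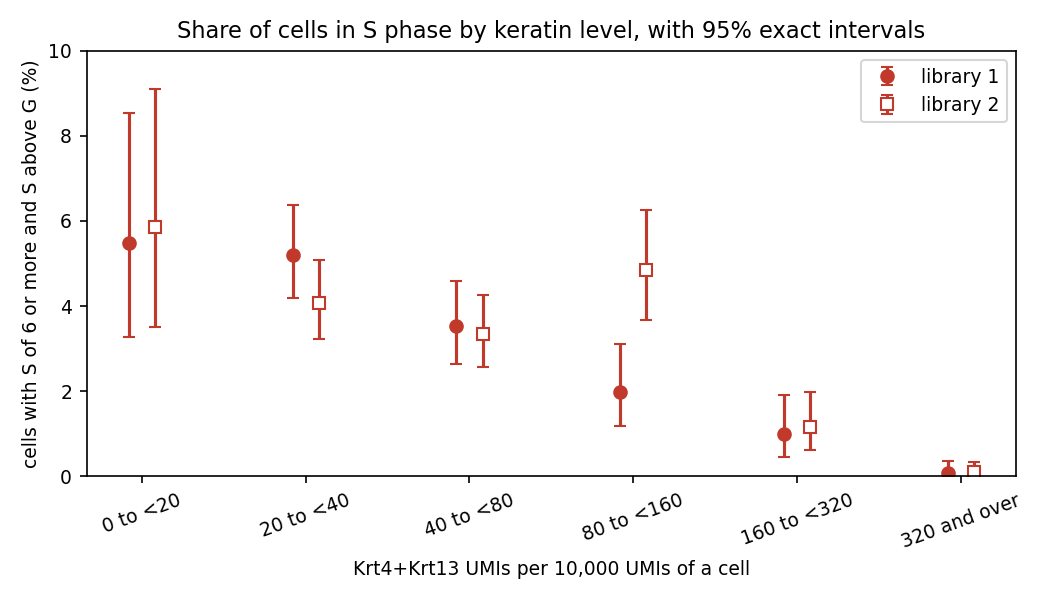
Percent of cells with S of at least 6 and S above G (y axis) in 6 bands of Krt4+Krt13 per 10000 UMIs (x axis), with 95% exact binomial intervals, filled for library 1 and open for library 2. The share is near 5% in the lowest bands and under 0.1% in the highest, and the libraries part between 80 and 160.

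Shares of cells with a UMI were taken after thinning every cell to 3000 UMIs. Slbp was found in 70.5% and 81.5% of low-keratin S-phase cells, 15.5% and 18.2% of resting cells and 32.4% and 34.4% of G2/M cells. Before thinning it was found in 134 of 156 and 146 of 157 S-phase cells. In the 43 and 51 cells with 4 or more immune markers, taken as a background class, Slbp was found in 16.3% and 33.3%, at a median of 9582 and 8219 UMIs a cell before thinning. That class also held Top2a in 20.9% and 25.5% of cells, against 3.82% and 4.17% of resting cells, so it may not show background alone. Whether the Slbp of resting cells is expression or background was not tested. E2f1 was found in 19.2% and 21% against 1.56% and 1.52% of resting cells and 1.7% and 1.96% of G2/M cells. Ccne1 was found in 13.5% and 12.1% against 0.755% and 1% of resting cells. The background class held E2f1 in 2.33% and 3.92% of cells and Krt14, a gene that immune cells should lack, in 69.8% and 86.3%.

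The S-phase cells varied among themselves. In 3 bands of S, 6 to under 10 (96 cells), 10 to under 20 (180 cells) and 20 and over (37 cells), the fork genes summed to 3249 and 3543 CPM, 5080 and 5531, then 5754 and 5872. Mitotic genes had 2083 and 2025, 4389 and 5137, then 5653 and 5960, so the mitotic sum had the larger ratio between the outer bands. Basal genes had 17787 and 15803 CPM in the lowest band and 15224 and 14812 in the highest. The rule's S divides these bands, and higher replication sums in them are built in to that extent. Because S had to exceed G, cells of the lowest band could only hold G under 10. Median G was 1.42 and 1.25 in the lowest band and 9.16 and 8.84 in the highest. The rule therefore limits mitotic transcripts most in the lowest band, and the mitotic sums are a description too. Median UMIs were 7057 and 5516 in the lowest band and 6804 and 6240 in the highest.

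**Figure D5:**
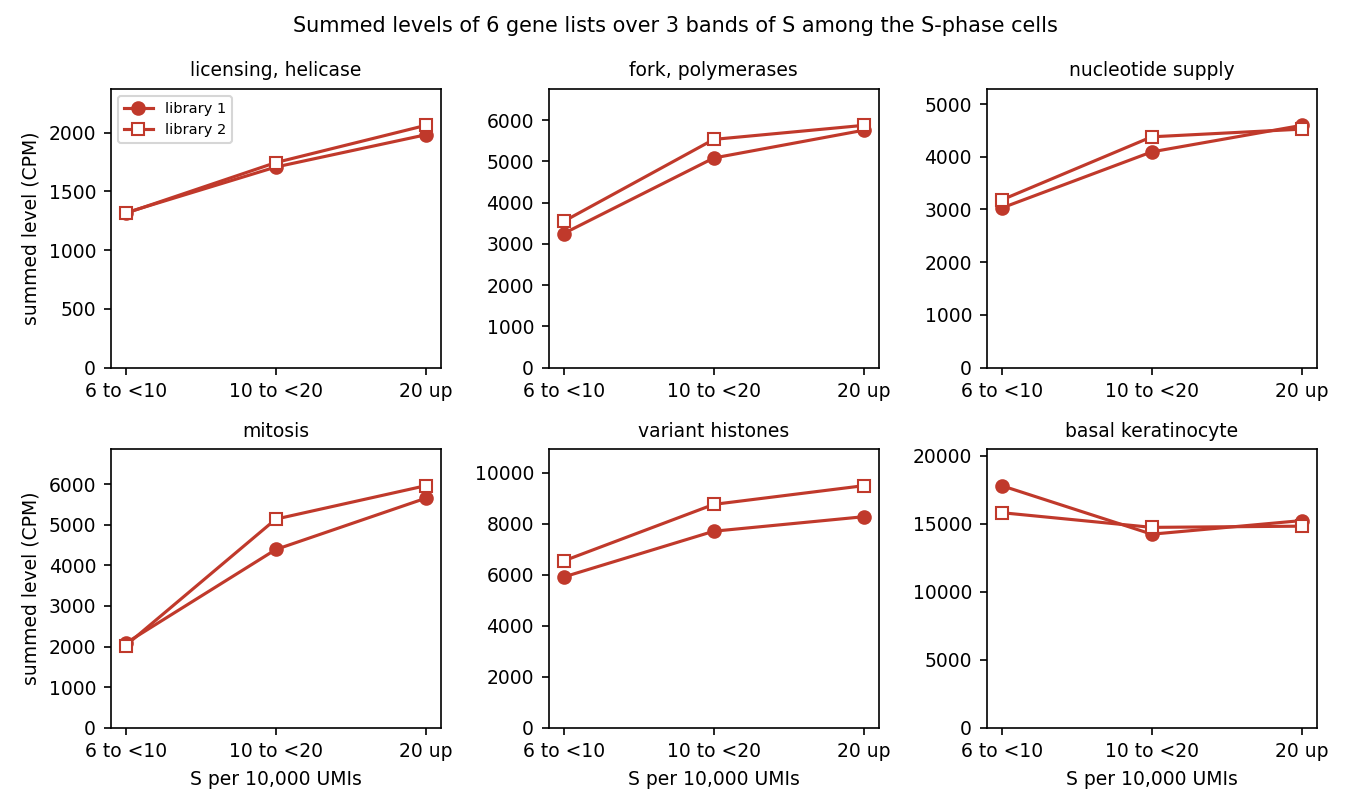
Summed levels in CPM (y axis) of 6 gene lists over 3 bands of S (x axis) among the low-keratin S-phase cells, filled for library 1 and open for library 2. The replication, histone and mitotic sums are higher in the bands of higher S, and the basal sum is not.

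The cells were also divided by Rrm2. It supplies much of S, so this split follows the bands of S by construction, and its values are a description. Cells with an Rrm2 UMI (118 and 116) had 82 of 349 listed genes higher and 8 lower than cells without (38 and 41). Over all 5415 genes compared 4.41% were higher and 2.83% lower. The lists hold many cell cycle genes. Pbk, a mitotic kinase, had 229 and 324 CPM with Rrm2 and 38.2 and 45.9 without, and Ccna2 had 109 and 146 against 33.9 and 22.9. Mcm6 had 137 and 148 against 148 and 115, and Mcm2 had 110 and 76.4 against 106 and 115, and neither passed. The licensing genes summed to 1708 and 1721 CPM with Rrm2 and 1221 and 1481 without. Ccne1 was higher with Rrm2, at 57.4 and 51.8 against 25.4 and 18.3. Krt15 was lower with Rrm2, at 1247 and 1464 against 1870 and 2875, and so was Itgb4, at 98.2 and 76.4 against 165 and 133. Median UMIs were 7282 and 6406 with Rrm2 and 5859 and 5349 without, and the part of this depth gap in the split was not tested.

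The split by any G UMI uses the rule's G genes and is a description too. With a G UMI 88 of 347 listed genes were higher and 8 lower, and over all 5438 genes 5.08% were higher and 3.35% lower. Birc5, survivin, had 239 and 290 CPM with a G UMI and 44.8 and 46.9 without. Esco2 had 145 and 187 against 8.97 and 40.2, and Clspn 78.3 and 69 against 8.97 and 13.4. Dll1 was among those lower with a G UMI, at 12 and 9.52 against 35.9 and 33.5, on 19 and 13 UMIs. Between the bands of S at 20 and over and at 6 to under 10, 99 of 349 listed genes were higher and 11 lower, beside 8.33% higher and 3.73% lower over all 5387 genes. Lower ones included Dkk3 (18.4 and 14.6 against 51.4 and 43.2) and the epithelial factor Tfap2b (36.7 and 43.7 against 103 and 119).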

How the data were processed

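Single-cell RNA was measured in 2 technical replicates of 1 pooled suspension of mouse buccal cells. The deposited files hold raw UMI counts per gene and barcode. Per the submitters' processing notes, the authors used Cell Ranger and the mm10 build; the Cell Ranger version is not given in the sources used here. All 27998 genes of the files were kept, and 27722 matched GENCODE M21 by Ensembl ID. For each library, a class's UMIs per gene were added up and divided by the class total. Intervals are 95% exact binomial, and a count of 0 was set to 3 for ratios. The size rule (1.5-fold in both libraries, mean of 20 CPM) stands in for a test, since 1 independent sample allows none. No doublet caller was run. The groups come from the labels only as library 1 and library 2.

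Genes named are the 12 furthest up and the 12 furthest down in each comparison, the genes of the rule, up to 8 called and 4 uncalled members of each gene list, and a fixed set of cell cycle and basal genes. Genes named from the splits within the S-phase cells were chosen after their values were seen. The members and lists were chosen with earlier results of these data known. Alternatives changed the thresholds, depth, scaling, filters and cells kept. Tables were made in Python 3.11.15 (pandas 2.3.3, numpy 2.4.6), intervals with scipy 1.17.1 and plots with matplotlib 3.10.9. The scripts were tested on simulated data.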

Additional observations from a re-analysis of the deposited data

How the results depend on the processing

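Low-keratin S-phase cells averaged 2.05% of kept cells over the libraries. The share was 2.77% at an S threshold of 4, 1.42% at 10, 1.31% and 2.5% at keratin limits of 40 and 160, 1.73% with at most 5% mitochondrial UMIs, 2.54% after thinning to 3000 UMIs and 1.21% with G under 6. With mean levels of 50 CPM, 5 CPM and a 2-fold rule, the 494 genes higher than in resting cells became 233, 925 and 274, and the 184 lower became 64, 449 and 37. Against G2/M cells the 250 higher became 109, 532 and 81, and the 305 lower became 158, 549 and 143. Against S-phase cells with more keratin the 207 higher became 74, 549 and 46, and the 194 lower became 72, 428 and 61. At an S threshold of 4, 115 genes were lower than in resting cells. With a keratin limit of 40, 76 genes were higher than in S-phase cells with more keratin, and at 160, 398 were lower. With either library left out a gene had to pass in 1 library only. Counts were then 370 to 451 lower than in resting cells, 401 to 434 higher and 494 to 516 lower against G2/M cells, and 568 to 687 higher and 448 to 820 lower against S-phase cells with more keratin.

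Some single genes changed direction, as log2 ratios. Against resting cells Cd74 was 0.19 and H2-Aa 0.17 without cells of 3 or more immune markers, an alternative chosen after seeing the data. Without cells of 2 or more immune or fibroblast markers H2-Aa was 1.68 and H2-Eb1 2.21, and Dcn was -0.36 against S-phase cells with more keratin. With G under 6, Cenpe was -0.68, Cenpf -1.59 and Ube2c -0.31 against resting cells, which that limit builds in. Against G2/M cells H2-Ab1 was 0.32 at an S threshold of 4, and Krt16 was 0.19 after thinning and 0.85 in cells of 5000 to 15000 UMIs. Against S-phase cells with more keratin Cdc25b was -0.06 and Samhd1 0.23 at a keratin limit of 160. After thinning Cdc25b was -0.4, Cyp51 0.12, Cysrt1 0.33 and Hist3h2a 0.23. Cd74, H2-Aa, H2-Eb1 and Dcn are themselves among the markers that decided which cells were left out. Their changes without those cells are built in to that extent. Apart from these and the changes that the limit on G builds in, the cause was not tested. No paired analysis was possible because the 2 libraries are technical replicates of 1 suspension and no test was run. Depth limits the comparison with S-phase cells of more keratin most, since library 1 holds 28 of them.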

Other observations

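Of 8 cholesterol synthesis genes compared with resting cells, Idi1 alone was higher and none was lower (median log2 ratio 0.01). Of 7 early response genes Hspa1a, a heat shock protein, was lower and none was higher.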
